A study of Mus musculus with 12 samples.

Results

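The mu-class glutathione transferases Gstm1, Gstm2, Gstm3, Gstm4 and Gstm6 were followed in mouse liver together with Nqo1, Ephx1, Gclc, Srxn1 and Txnrd1, 5 further genes of the NRF2 antioxidant and detoxification programme. A transcript cluster, the probe set that reports a transcript on this array, was taken wherever the platform annotation gave it exactly 1 of these 10 symbols. That rule found 11 clusters of the 21789 with a single gene symbol, and of 35557 clusters in all. Each gene had 1 cluster except Gstm3, which had 2: cluster A (identifier 10362511) and cluster B (identifier 10501218). No filter on low values was applied, so all 11 were tested, and all 11 had a mean level above the median of the annotated clusters.

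The study crossed genotype with thyroid state and gave 12 arrays of liver RNA, 3 per group. Controls were either euthyroid (replicates 13, 14 and 15) or hypothyroid (replicates 17, 18 and 20). Mutants were likewise euthyroid (replicates 2, 3 and 4) or hypothyroid (replicates 5, 6 and 7), which makes 4 groups. Mutant animals are L-NCoR∆ID mice, whose liver makes a form of the corepressor NCoR that lacks domains for interaction with nuclear receptors. The ∆ID form is therefore a shortened protein, not an absent one. This description of the line is general knowledge and does not come from the labels. How hypothyroidism was produced, the strain, age and sex of the mice, the alleles of the controls and the driver of the liver alteration were not stated in the labels. Nothing in the labels says that the 3 arrays of a group came from separate mice, so the p-values measure the spread between these samples. The series was set up, per its design text, to ask what NCoR does in genes that are regulated positively and in genes that are regulated negatively.

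Glutathione transferases join glutathione to reactive compounds, which makes them soluble and ready for export, and the mu-class genes lie in a tandem cluster. NRF2, encoded by Nfe2l2, is the transcription factor that turns on many of these genes when KEAP1 no longer marks it for destruction, and it binds antioxidant response elements together with small MAF proteins. Thyroid hormone receptors recruit NCoR when hormone is absent, and NCoR is best known for holding down genes that the hormone turns on. In liver the same detoxification genes are also reached by the xenobiotic receptors CAR and PXR.

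Values are log2 signals, so a difference of 1 is a doubling. Array medians lay between 4.16 and 4.32, and the SD of the log2 values within an array lay between 2.22 (control euthyroid replicate 14) and 2.35 (mutant hypothyroid replicate 7). These arrays stood at the ends of that range. Every array, these included, was also left out in turn. The 3 mutant hypothyroid arrays had the highest SDs (2.32, 2.34 and 2.35), so the array SD partly follows the group. As a covariate it can therefore take up part of a group difference. The mean level of 7 measured hepatocyte markers lay between 12.28 and 12.50 on every array. Tests used limma with 4 group means on all 12 arrays and Benjamini-Hochberg adjustment over 21789 clusters. Clusters with an adjusted p below 0.05 were called, SE is that of the fit, and every group mean rests on n = 3 arrays.

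Because the mu-class genes are neighbours, their order and start regions are shown before their values. In RefSeq's GRCm38.p6 annotation the genes of the cluster on chromosome 3 stand in the order Gstm5, the pseudogene Gm9515, Gstm7, Gstm6, Gstm3, the pseudogene Gm12497, Gstm2, Gstm1, the pseudogene Gm12502 and Gstm4. RefSeq start sites were found for 9 of the 10 member genes, with 15 windows; Gclc is named only. The 250 bases before the start were searched on both strands for 3 patterns: TGACNNNGC, the core of the antioxidant response element; TGANTCAGC, a site of NRF2 with small MAF proteins, which overlaps the first pattern where its N is C; and AGGTCA, the hexamer bound by thyroid hormone receptors and other nuclear receptors. The upstream windows of Gstm3 and Nqo1 are printed because these genes had the largest differences between thyroid states, and those of Srxn1 and Txnrd1 because they held a match.

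The Gstm3 window is chr3:107969175-107969424 on the minus strand, the Nqo1 window chr8:107403206-107403455 on the minus strand, the Srxn1 window chr2:152105274-152105523 on the plus strand and the Txnrd1 window, before the second of its starts, chr10:82858956-82859205 on the plus strand. Each is written 5′ to 3′ along its gene, and capitals mark the TGANTCAGC match of Srxn1 and the TGACNNNGC match of Txnrd1, which lies on the opposite strand.
Gstm3: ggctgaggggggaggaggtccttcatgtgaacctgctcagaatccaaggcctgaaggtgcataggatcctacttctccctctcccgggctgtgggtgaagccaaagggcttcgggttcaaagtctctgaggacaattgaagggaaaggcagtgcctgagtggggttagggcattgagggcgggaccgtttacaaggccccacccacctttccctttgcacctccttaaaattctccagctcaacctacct
Nqo1: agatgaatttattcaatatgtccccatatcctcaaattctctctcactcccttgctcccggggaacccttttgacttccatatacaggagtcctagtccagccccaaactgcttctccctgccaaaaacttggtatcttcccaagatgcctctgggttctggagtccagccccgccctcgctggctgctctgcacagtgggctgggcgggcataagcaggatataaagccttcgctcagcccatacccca
Srxn1: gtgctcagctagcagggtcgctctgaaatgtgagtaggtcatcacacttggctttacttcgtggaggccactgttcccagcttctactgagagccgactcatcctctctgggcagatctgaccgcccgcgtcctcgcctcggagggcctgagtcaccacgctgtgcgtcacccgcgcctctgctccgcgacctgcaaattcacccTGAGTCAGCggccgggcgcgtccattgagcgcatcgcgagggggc
Txnrd1: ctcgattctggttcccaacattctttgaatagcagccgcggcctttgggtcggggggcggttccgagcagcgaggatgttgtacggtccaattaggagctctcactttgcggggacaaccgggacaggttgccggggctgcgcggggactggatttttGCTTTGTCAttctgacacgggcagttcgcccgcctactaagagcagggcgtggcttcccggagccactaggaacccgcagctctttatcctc

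TGANTCAGC occurred in 1 of the 15 upstream windows of the members, that of Srxn1, beginning 45 bases before the start. The same pattern was present in 1.02% of 32851 windows of equal length over all genes. TGACNNNGC occurred in 1 window, that of Txnrd1, beginning 92 bases before the start, against 10.2% of all windows. AGGTCA occurred in 1 window, that of Srxn1, against 14% of all windows. No window of a mu-class member held any of the 3 patterns within these 250 bases, which says only that these letters are not in these windows. An AGGTCA began 5 bases before the second start of Gstm1 and ended past it, so it was not counted. Past its start, Srxn1 also held a TGACNNNGC match on the opposite strand and a further AGGTCA. In the wider windows, which add 50 bases after the start, the longest run of letters shared between windows of different mu-class genes was 16 bases (Gstm1 and Gstm3).

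Gstm3, whose product conjugates glutathione to electrophiles, had the widest range of any member. Cluster B of Gstm3 stood at 9.17, 8.92 and 9.34 in euthyroid controls (replicates in the order given above, as for all values that follow), 11.97, 11.75 and 12.04 in hypothyroid controls, 10.28, 10.20 and 10.23 in euthyroid mutants, and 12.71, 12.37 and 12.28 in hypothyroid mutants. No group overlapped another: the groups ascended from euthyroid controls to euthyroid mutants, hypothyroid controls and hypothyroid mutants. Cluster A of Gstm3 stood at 9.98, 9.99 and 9.86, then 12.15, 11.76 and 12.24, then 10.76, 10.76 and 10.60, and then 12.64, 12.38 and 12.41 in the same groups. It gave the same order of groups, again without overlap. Mu-class genes are close paralogues and the sequences of the probes were not used here, so how far a cluster also reads its neighbours' transcripts is uncertain. The identifier of cluster A lies outside the run of the other mu-class members (10501208 to 10501235). Where cluster A maps in the genome was not checked, so it may not be a second measure of the Gstm3 locus.

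Gstm4, a mu-class enzyme of the same cluster of genes, was the remaining member whose 4 groups were fully separated. Its levels were 9.24, 8.92 and 8.93 in euthyroid controls, 10.46, 10.13 and 10.54 in hypothyroid controls, 9.41, 9.64 and 9.49 in euthyroid mutants, and 10.71, 10.64 and 10.74 in hypothyroid mutants. So 3 of 11 member clusters, from 2 genes, showed 4 groups without overlap in this order, against 0.0918% of all annotated clusters (20 of 21789). The order is the one these members themselves showed, so the share describes them and tests nothing.

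**Figure D1:**
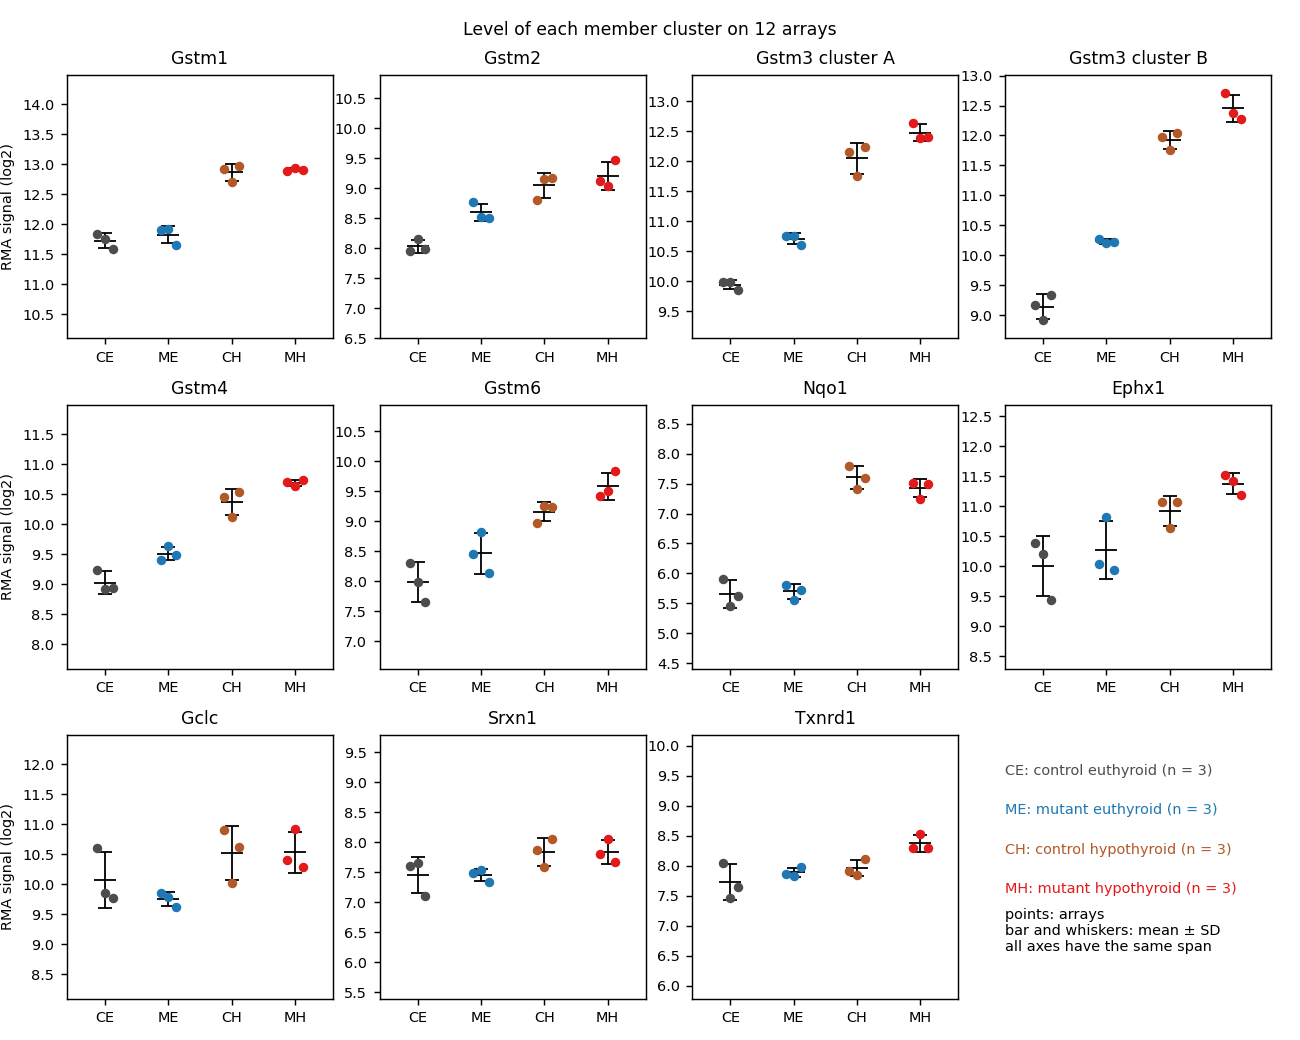
Level (log2 signal, y axis) of each of the 11 member clusters on the 12 arrays, by group (CE, control euthyroid; ME, mutant euthyroid; CH, control hypothyroid; MH, mutant hypothyroid); points are arrays, the bar is the group mean and the error bar its SD (n = 3). The y axes share a span but not a centre; both Gstm3 clusters and Gstm4 climb from CE through ME and CH to MH with no overlap, whereas the genotypes overlap for Nqo1 within each thyroid state.

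The first comparison asked what hypothyroidism did in controls. The mu-class members and Nqo1 rose, and 7 of 11 member clusters were called, all higher. Over all annotated clusters 1.11% were called and 0.638% were called higher. Members and the lists below were chosen with earlier results of these data known. Their counts beside such shares therefore describe them and test nothing. Cluster B of Gstm3 rose 6.88-fold (log2 difference 2.78 ± 0.15 SE, limma adjusted p = 6.73e-08) and cluster A 4.30-fold (2.10 ± 0.14, adjusted p = 1.3e-06). Nqo1, a quinone reductase and the classical NRF2 target, rose 3.84-fold (1.94 ± 0.15, adjusted p = 7.98e-06). By p-value, these clusters held ranks 3, 4 and 5 of 21789.

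Nqo1 stood at 5.91, 5.45 and 5.62 in euthyroid controls and at 7.80, 7.42 and 7.60 in hypothyroid controls, so that every hypothyroid array lay above every euthyroid array. Gstm1, a mu-class enzyme, stood at 11.84, 11.75 and 11.59 against 12.92, 12.71 and 12.97.

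The other mu-class members rose between 2.03-fold and 2.54-fold in hypothyroid controls. Outside the members, Gstm7 rose 1.59-fold (limma adjusted p = 0.0274). Gstm5 was 1.31-fold higher and was not called (adjusted p = 0.498). Gstm1 rose by 1.14 ± 0.13 (adjusted p = 0.000225) and Gstm4 by 1.35 ± 0.14 (adjusted p = 0.000125). Gstm2 rose by 1.02 ± 0.15 (adjusted p = 0.00222), from 7.95, 8.15 and 7.99 to 8.81, 9.16 and 9.18. Gstm6 rose by 1.17 ± 0.19 (adjusted p = 0.00632), from 8.31, 7.98 and 7.65 to 8.97, 9.25 and 9.24. With the SD of each array's values as a covariate the Gstm6 difference was 0.93 and was not called (adjusted p = 0.0688).

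The remaining NRF2 targets did not pass the test in controls. Ephx1, the microsomal epoxide hydrolase, stood at 10.38, 10.20 and 9.44 in euthyroid controls and at 11.07, 10.64 and 11.07 in hypothyroid controls. These arrays did not overlap, but the difference of 0.92 ± 0.25 had an adjusted p of 0.0985, with replicate 15 well below the other euthyroid arrays. Without replicate 13 it was called (1.11, adjusted p = 0.0338). Gclc, the catalytic subunit of the enzyme that limits glutathione synthesis, differed by 0.44 (95% interval −0.08 to 0.97). Srxn1, sulfiredoxin, which repairs overoxidised peroxiredoxins, differed by 0.39 (0.03 to 0.75), and Txnrd1, cytosolic thioredoxin reductase, by 0.23 (−0.09 to 0.55). Single arrays moved these values: leaving out 1 array gave 0.25 (without replicate 17) to 0.71 (without replicate 13) for Gclc, 0.21 (without replicate 15) to 0.51 (without replicate 18) for Srxn1 and 0.10 (without replicate 14) to 0.39 (without replicate 13) for Txnrd1. Hypothyroid arrays lay above every euthyroid array in 8 of 11 member clusters, against 8.78% of all clusters.

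The second comparison asked the same of the mutants, where 7 of 11 member clusters were again called, all higher, against 1.11% of all clusters called and 0.652% called higher. Cluster B of Gstm3 rose 4.65-fold (2.22 ± 0.15, adjusted p = 1.25e-06), cluster A 3.41-fold (1.77 ± 0.14, adjusted p = 1.14e-05) and Nqo1 3.29-fold (1.72 ± 0.15, adjusted p = 3.53e-05). Nqo1 went from 5.82, 5.56 and 5.72 in euthyroid mutants to 7.51, 7.25 and 7.50 in hypothyroid mutants. Gstm1 (1.08), Gstm4 (1.18) and Gstm6 (1.11) were called as well. With the array SD as a covariate Gstm4 (0.97, adjusted p = 0.0605) and Gstm6 (0.74, adjusted p = 0.388) were not, nor was Gstm6 when every cluster of the table was tested (adjusted p = 0.0505).

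The lists of called clusters differed between the genotypes at Gstm2 and Ephx1. Gstm2 stood at 8.77, 8.53 and 8.50 in euthyroid mutants and at 9.12, 9.04 and 9.47 in hypothyroid mutants, a difference of 0.61 ± 0.15 that was not called (adjusted p = 0.0731). Without control euthyroid replicate 14, which enters through the shared spread, Gstm2 was called (adjusted p = 0.0424) and the mutant count was 8; over all alternatives its adjusted p ranged from 0.0424 to 0.352. Ephx1 stood at 10.05, 10.82 and 9.94 in euthyroid mutants and at 11.53, 11.42 and 11.19 in hypothyroid mutants, a rise of 1.11 ± 0.25 (adjusted p = 0.0458). The Ephx1 call was lost in 13 of 21 alternative settings, and without mutant hypothyroid replicate 7 its adjusted p was 0.108. Neither difference between genotypes was called when tested itself: the interaction was −0.41 ± 0.21 for Gstm2 and 0.19 ± 0.35 for Ephx1 (adjusted p = 1.00 for both). The Gstm6 call was lost without mutant euthyroid replicate 4 (adjusted p = 0.0674) and without mutant hypothyroid replicate 7 (0.0719).

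In the mutants all 11 member clusters had hypothyroid arrays above every euthyroid array, where 14.6% of all clusters did. Among them were Gclc, at 9.85, 9.78 and 9.62 against 10.40, 10.93 and 10.28, and Txnrd1, at 7.86, 7.83 and 7.98 against 8.29, 8.54 and 8.30. Both missed the threshold (0.78 ± 0.25 and 0.48 ± 0.15, adjusted p = 0.161 for each), as did Srxn1 (0.39 ± 0.17, adjusted p = 0.290).

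Averaged over genotypes, 8 of 11 member clusters were called higher in hypothyroid livers, against 6.04% of all clusters called and 4.18% called higher. In 7 of 11 the 6 hypothyroid arrays lay above all 6 euthyroid arrays, against 2.62% of all clusters. The member differences had a median of 1.11, beside −0.02 over all clusters. Ephx1 entered the called members here (1.02 ± 0.18, adjusted p = 0.00355). With the array SD as a covariate 6 members were called: Ephx1 (adjusted p = 0.272) and Gstm6 (0.83, adjusted p = 0.0681) were not. Gclc (0.61, adjusted p = 0.0503), Txnrd1 (0.36, 0.0603) and Srxn1 (0.39, 0.068) missed the threshold. Without control euthyroid replicate 13 all 11 members were called, and without control hypothyroid replicate 18 Gclc was (adjusted p = 0.0259).

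The third comparison asked what the NCoR alteration did in euthyroid mice. Cluster B of Gstm3 was the 1 of 11 member clusters called, 2.14-fold higher in mutants (1.09 ± 0.15, limma adjusted p = 0.00859). Over all clusters 0.129% were called and 0.124% were called higher. At an unadjusted p under 0.05 there were 5 member clusters (both of Gstm3, Gstm2, Gstm4 and Gstm6), all higher in mutants. The share over all clusters was 8.13%. Cluster A was 1.70-fold higher (0.76 ± 0.14) and just missed the threshold (adjusted p = 0.0521); without control euthyroid replicate 13 or control hypothyroid replicate 18 it was called (adjusted p = 0.035 or 0.0307). The cluster B call was lost without mutant euthyroid replicate 2 or 4, although the difference hardly moved (1.07 or 1.10, adjusted p = 0.0523 or 0.0532).

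Arrays of euthyroid mutants lay above every euthyroid control in 4 member clusters (both of Gstm3, Gstm2 and Gstm4), against 5.05% of all clusters. Gstm2 was higher by 0.57 ± 0.15 (adjusted p = 0.257) and Gstm4 by 0.48 ± 0.14 (adjusted p = 0.355), and neither was called. Gstm1, their neighbour, had euthyroid mutants at 11.90, 11.92 and 11.66 and differed by 0.10 (95% interval −0.17 to 0.37). Nqo1 differed by 0.04 (−0.28 to 0.36), so that its interval does not reach the mutant difference of Gstm3. Gstm6 differed by 0.49, with euthyroid mutants at 8.46, 8.81 and 8.13 overlapping the controls.

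The fourth comparison asked the same in hypothyroid mice, where 0 of 11 member clusters were called with limma, against 0.262% of all clusters. At an unadjusted p under 0.05 there were 5 (both Gstm3 clusters, Gstm4, Gstm6 and Txnrd1), all higher in mutants, against 10.4% of all clusters. Cluster B of Gstm3 was higher by 0.53 ± 0.15 (adjusted p = 0.228) and cluster A by 0.43 ± 0.14 (adjusted p = 0.306). Mutants lay above every control in 6 member clusters, against 12.4% of all clusters. Txnrd1 was among them, at 8.29, 8.54 and 8.30 against 7.91, 7.85 and 8.10 (0.42 ± 0.15, adjusted p = 0.354). Nqo1 differed by −0.19 (95% interval −0.51 to 0.14), the only one of the 7 clusters called in hypothyroid controls with a lower mean in hypothyroid mutants.

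The genotype difference did not pass a test of dependence on thyroid state. The interaction was called in 0 of 11 member clusters and 0% of all clusters by limma, and at an unadjusted p under 0.05 in 1 member cluster and 600 clusters in all. That member was cluster B of Gstm3, whose mutant difference was smaller in hypothyroid mice by −0.56 ± 0.21 on the log2 scale (95% interval −1.01 to −0.12, adjusted p = 1.00).

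Averaged over thyroid states, both Gstm3 clusters were higher in mutants: cluster B 1.76-fold (0.81 ± 0.10, adjusted p = 0.00121) and cluster A 1.51-fold (0.60 ± 0.10, adjusted p = 0.00857). These were the 2 of 11 member clusters called, against 1.14% of all clusters called and 0.904% called higher. The cluster A call was lost with the array SD as a covariate (adjusted p = 0.116), and without control euthyroid replicate 13 the count of called members was 5. Gstm4 (0.40, adjusted p = 0.0712), Gstm2 (0.36, 0.119) and Gstm6 (0.46, 0.131) were not called. Gstm1 differed by 0.07 (95% interval −0.12 to 0.26), Nqo1 by −0.07 (−0.30 to 0.15) and Srxn1 by −0.00 (−0.26 to 0.25). The median of the members was 0.36, beside −0.01 over all clusters. The comparisons share arrays, so their values stand side by side and are not independent.

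**Figure D2:**
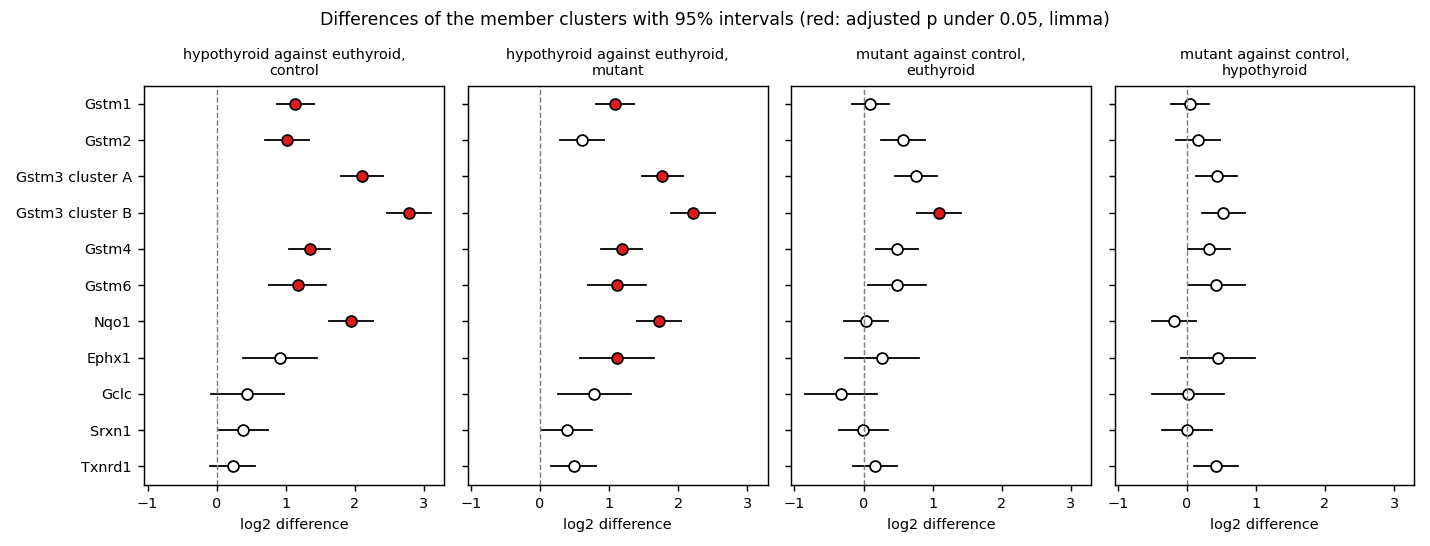
Log2 difference (x axis) of each member cluster (y axis) with its 95% interval in each comparison, red where the limma adjusted p was under 0.05. Every member lies to the right of 0 in both hypothyroid comparisons, and cluster B of Gstm3 is the single red member in euthyroid mutants against controls.

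The other genes of the pathway were read from context lists, whose counts stand against the shares of all clusters called: 6.04% between thyroid states averaged over genotypes (4.18% higher), 1.11% in each genotype alone, and 1.14% between genotypes averaged over thyroid states (0.904% higher). Of 26 measured NRF2 targets that are not members, 13 rose and 1 fell in hypothyroid against euthyroid livers averaged over genotypes. Abcc4, a glutathione conjugate and drug exporter, rose 3.25-fold (1.70 ± 0.16, adjusted p = 1.68e-05), Cbr3, a carbonyl reductase, 3.25-fold (1.70 ± 0.28), and Aox1, aldehyde oxidase, 2.51-fold (1.33 ± 0.14). Cbr3 had means of 3.58 in euthyroid controls and 3.51 in euthyroid mutants, below every array median. In hypothyroid controls its mean was 5.14 with an SD of 1.04, and it was not called between thyroid states in controls alone. Osgin1 moved the other way and fell by 1.88 ± 0.20 on the log2 scale (adjusted p = 5.8e-05). Gclm, the partner subunit of Gclc (0.29, adjusted p = 0.0776), and Hmox1, haem oxygenase (−0.24, adjusted p = 0.235), were not called. The list median was 0.35, and 7 of its members rose and 1 fell in each genotype taken alone.

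In mutants against controls averaged over thyroid states, 3 of the 26 rose and no other was called. They were Me1, malic enzyme, 2.96-fold (1.57 ± 0.16), Pgd, of the pentose phosphate pathway, 1.74-fold (0.80 ± 0.11) and Abcc4 1.72-fold (0.78 ± 0.16, adjusted p = 0.0265). Me1 had 2 clusters, and only the one with the higher mean level is given. Me1 and Pgd supply NADPH and are also known as thyroid hormone and lipogenic genes. The list median was 0.11.

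Of 16 other measured glutathione transferases, 5 rose and no other was called in hypothyroid livers averaged over genotypes. Gstp1, the pi-class enzyme, rose 2.58-fold (1.37 ± 0.18, adjusted p = 0.000354); its near-identical copy Gstp2 was not measured apart from it, so its value is uncertain. Mgst3, a microsomal transferase, rose 1.85-fold (0.89 ± 0.12), Gsta4, which clears the lipid aldehyde hydroxynonenal, 1.67-fold (0.74 ± 0.11), and Gstm7, next to Gstm6 in the gene cluster, 1.47-fold (0.56 ± 0.10). In mutants against controls 1 was called: Mgst3 fell by 0.72 ± 0.12 on the log2 scale (adjusted p = 0.00786), opposite in direction to Gstm3.

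Of the 12 regulators of NRF2, 1 was called in hypothyroid livers, a share near that of all clusters: Bach1, a repressor at antioxidant response elements, was higher by 0.41 ± 0.11 (adjusted p = 0.0433). Nfe2l2, which encodes NRF2, differed by 0.47 ± 0.14 (adjusted p = 0.0667) and Keap1 by −0.01 ± 0.10. In mutants against controls 0 of 12 were called by limma and 3 had an unadjusted p under 0.05, near the 16.7% of all clusters that did; the largest differences were 0.44 for Cul3, the ubiquitin ligase scaffold that works with KEAP1, and −0.31 for Bach2. Transcript levels do not measure NRF2 protein, which is controlled mainly by its stability.

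CAR and PXR targets, which overlap the detoxification programme in function, formed another list. It also counted the receptor genes themselves, Nr1i3 for CAR and Nr1i2 for PXR. Of 18 measured, 6 rose and no other was called in hypothyroid livers, led by Gadd45b (1.12 ± 0.18), Aldh1a7 (0.64 ± 0.15), Cyp2c29 (0.57 ± 0.12) and Nr1i3 (0.51 ± 0.14). Nr1i2 was also among the 6 (0.42 ± 0.11). In mutants against controls 4 rose and 1 fell: Ces2a 2.77-fold (1.47 ± 0.10), Gadd45b 1.77-fold (0.83 ± 0.18) and Cyp3a11 1.67-fold (0.74 ± 0.14) rose, and Nr1i3 fell by 0.65 ± 0.14 on the log2 scale. Between thyroid states in controls alone, 1 of the 18 was called: Cyp3a11 differed by −0.92 ± 0.19 (limma adjusted p = 0.0293). In mutants alone 2 of the 18 were called, both higher (Gadd45b and Cyp2c29), and Cyp3a11 was not called.

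**Figure D3:**
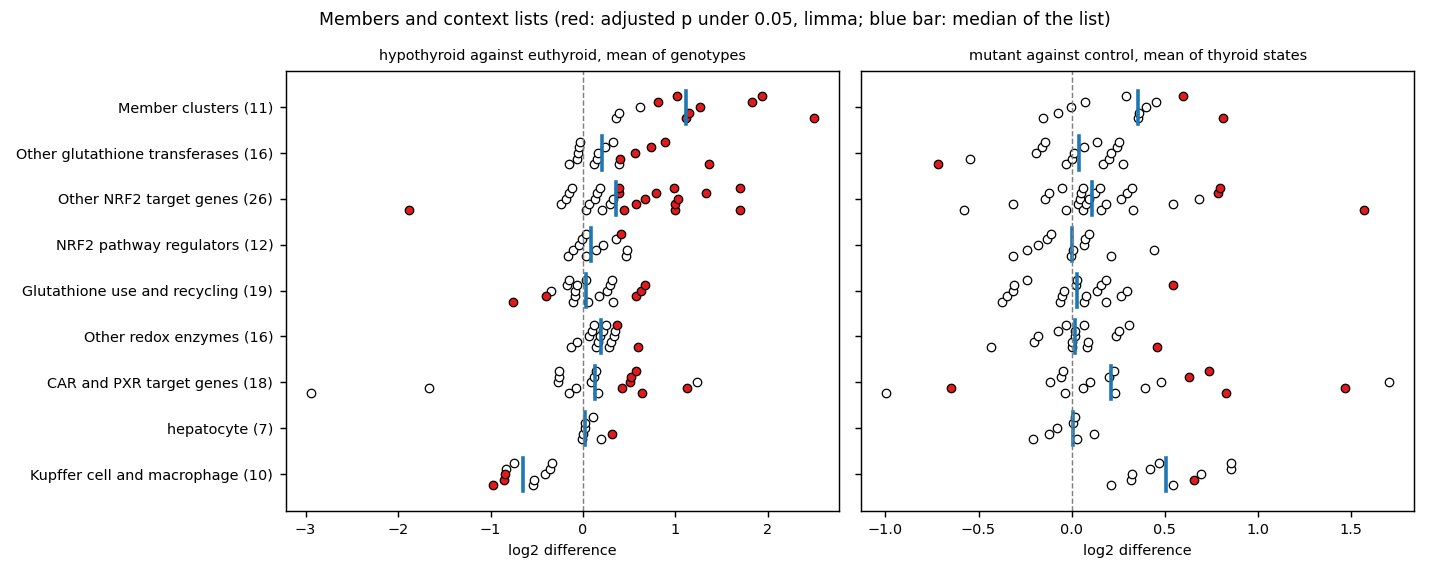
Log2 differences (x axis) of single genes (points) in the members and in each context list (y axis), red where the limma adjusted p was under 0.05, with the median of each list as a blue bar. Members and other NRF2 targets lie mostly to the right of 0 for hypothyroid against euthyroid, and the regulators lie around 0.

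Markers of Kupffer cells and macrophages moved with both factors. Averaged over genotypes 3 of 10 fell in hypothyroid livers (Clec4f, Cd5l and C1qc), where 407 of 21789 clusters were called lower. Averaged over thyroid states 1 rose in mutants (Adgre1, 0.66 ± 0.15), where 0.904% of all clusters were called higher. The mean level of the 10 markers lay between 5.91 and 6.09 in euthyroid controls, 5.42 and 5.59 in hypothyroid controls, 6.27 and 7.26 in euthyroid mutants and 5.47 and 6.31 in hypothyroid mutants. Of the 7 hepatocyte markers 1 rose in hypothyroid livers (Ttr, 0.32 ± 0.08). Of 31 measured markers of endothelial, stellate, cholangiocyte, lymphocyte and erythroid cells, limma called 0 in either averaged comparison. At an unadjusted p under 0.05 there were 10 between thyroid states, against 24.7% of all clusters, and 0 between genotypes, against 16.7%. Of those 10, 5 were among the 8 stellate cell and fibroblast markers. The part of these shifts in the member differences was not tested, and in whole liver fewer cells of a type cannot be told apart from less RNA per cell.

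Genes whose 12 centred values lay closest to a member were found by root mean square distance over the arrays. The closest to cluster A of Gstm3 were Abcc4 (0.312 log2 units), Gstm4 (0.368) and Nqo1 (0.370), and to cluster B Abcc4 (0.519), Nqo1 (0.580) and Lpl (0.654). Gstm1 was closest to Pir (0.115), Abcc3 (0.132) and Tceal8 (0.153), and Gstm4 to Pir (0.160), Ugdh (0.200) and Gstm1 (0.205). Gstm2 was closest to Tceal8 (0.184), Glt1d1 (0.186) and Robo1 (0.211), and Gstm6 to Car5b (0.159), Gstm4 (0.217) and Dnase2b (0.240). Nqo1 was closest to Chpt1 (0.312), Aox1 (0.340) and Fam13a (0.369), and Ephx1 to Gstm6 (0.270), Pir (0.284) and Gstm4 (0.290). These distances describe likeness over the 12 arrays, which include the shared thyroid difference, and carry no test.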

How the data were processed

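Total liver RNA was hybridised to Affymetrix mouse Gene Level ST arrays, per the labels' protocols. The deposited values are log2 signals that the authors made with RMA, per the submitters' processing notes. RMA's version and options are not given in the sources here, nor are dates of scanning, so arrays could not be tested for batches. No value was missing among 35557 clusters. Of these, 21789 had a single symbol in the platform annotation, 1621 had several and 12147 had none listed. RefSeq's GRCm38.p6 table held the Entrez identifiers of 21698.

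Groups came from the sample titles. The deposited log2 values were fitted with limma 3.58.1 in R 4.3.3 (4 group means, prior degrees of freedom 6.83, residual 8). Adjustment was by Benjamini-Hochberg over the 21789 clusters within each of 7 comparisons. The fit was tested on simulated data. Arrays number 3 per group, which limits the precision. Every member cluster was named; from each list, up to 4 called members with the largest differences; for each called member, the 3 nearest profiles. A few list genes beyond that rule (Nfe2l2, Keap1, Gclm, Hmox1) were added as values. Where a list gene had several clusters, only that with the highest mean level was used. Members and lists were chosen with earlier results of these data known. Alternatives were another normalization or centring, filters, covariates, weights, a variance trend and single arrays left out.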

Additional observations from a re-analysis of the deposited data

How the results depend on the processing

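Alternatives numbered 21 for pairwise comparisons and 20 for the others, 12 of them leaving out 1 array each. Of 25 calls of member clusters over the 7 comparisons, 17 were kept under every alternative and 22 whichever single array was left out. Both Gstm3 clusters, Gstm1 and Nqo1 kept their hypothyroid calls in both genotypes under each alternative. No paired analysis was possible because the groups share no replicate numbers. Where a call or a sign changed below, the cause was not tested.

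The count of members called in euthyroid mutants against controls (1) was 6 with array weights, 2 with a variance trend, and 0 to 2 with 1 array left out. Averaged over thyroid states the mutant count (2) was 7 with array weights, 1 with the array SD as covariate, and 2 to 5 with 1 array left out. In mutants the hypothyroid count (7) was 4 with the array SD as covariate. Counts over all clusters moved more: hypothyroid against euthyroid controls (242) ranged from 134 to 3670, the same in mutants (241) from 36 to 620, mutants against controls from 6 to 1241 in euthyroid mice (28) and from 9 to 337 in hypothyroid mice (57). The average hypothyroid count (1317) ranged from 181 to 4717 and the average mutant count (248) from 41 to 2573.

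Signs reversed in 13 of 77 member values, none of them called. With the array SD as covariate Nqo1 was −0.018 in euthyroid mutants against controls, Gstm1 −0.051 and Gclc −0.31 in hypothyroid mutants against controls, and Gstm1 −0.0012 on average. With quantile normalization Gclc was −0.045 in the hypothyroid comparison. With median centring Srxn1 was 0.039, 0.062 and 0.051 for mutants against controls (euthyroid, hypothyroid, average) and 0.023 for the interaction. With array weights Srxn1 was 0.31, 0.069 and 0.19, Gclc 0.022 on average and the Ephx1 interaction −0.25. Without control euthyroid replicate 14 and mutant hypothyroid replicate 7 Nqo1 was −0.065 in euthyroid mice and Srxn1 0.097, 0.085 and 0.091.

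With 1 array left out, the euthyroid mutant difference ranged from −0.065 to 0.16 for Nqo1, −0.021 to 0.45 for Ephx1 and −0.18 to 0.097 for Srxn1. The hypothyroid mutant difference ranged from −0.038 to 0.094 for Gstm1, −0.23 to 0.21 for Gclc and −0.13 to 0.11 for Srxn1. The interaction ranged from −0.14 to 0.010 for Gstm1, −0.23 to 0.11 for Gstm6 and −0.13 to 0.17 for Srxn1, and the average mutant difference of Srxn1 from −0.090 to 0.053.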

Other observations

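Genes that use and recycle glutathione, and redox enzymes outside the NRF2 list, were followed in the same fit. The glutathione list shares Gclm, Gss, Gsr and Slc7a11 with the list of NRF2 targets, so Gsr counts in both. Of 19 measured genes of glutathione use and recycling, 3 rose and 2 fell in hypothyroid livers averaged over genotypes. Over all clusters 4.18% were called higher there, and 407 of 21789 were called lower. Gsr, which regenerates reduced glutathione, rose by 0.67 ± 0.14 (SE, limma adjusted p = 0.0109), Glo1, glyoxalase, by 0.62 ± 0.12 (adjusted p = 0.00547) and Chac2, which degrades glutathione, by 0.57 ± 0.15 (adjusted p = 0.0422). Gpx1, the glutathione peroxidase that removes hydrogen peroxide, fell by 0.75 ± 0.10 on the log2 scale (adjusted p = 0.000278), and Ggct fell by 0.40 ± 0.09 (adjusted p = 0.0216). The list median was 0.04, beside 1.11 for the members and −0.02 over all clusters. Ggct was also the 1 gene of this list called in mutants against controls, where it rose by 0.55 ± 0.09 (adjusted p = 0.00994). Between genotypes 1.14% of all clusters were called and 0.904% were called higher.

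Of 16 other redox enzymes measured, 2 rose in hypothyroid livers, against 4.18% of all clusters called higher. They were Txnip, the thioredoxin-binding protein (0.59 ± 0.15, adjusted p = 0.0355), and Prdx2, a peroxiredoxin (0.37 ± 0.10, adjusted p = 0.0385). In mutants against controls Txnrd3, a paralogue of Txnrd1, rose by 0.46 ± 0.09 (adjusted p = 0.0215), whereas Txnrd1 itself was not called (0.29 ± 0.11, adjusted p = 0.194).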
